A study of Rattus norvegicus with 12 samples.

Results

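Dorsal root ganglia of rats given cisplatin with CYM-5478 were compared with those of rats given vehicle, across all genes, which takes in 8 of the 12 libraries of the study. The 4 rats of the first group received intraperitoneal cisplatin, a platinum drug against cancer, on days 0, 7 and 14 (3 mg/kg each time), and intraperitoneal CYM-5478 every day between day -1 and day 20. The sample labels put the CYM-5478 dose at 0.1 mg/kg, whereas the treatment protocol puts it at 1 mg/kg. The 4 vehicle rats received saline that contained Tween 20 (0.1 in the label, 0.1% in the protocol) and 1% DMSO. The remaining 4 rats received the same cisplatin schedule without CYM-5478, and they enter here through the estimate of the spread and as values set beside the comparison. All rats were Sprague Dawley of wild genotype, age and sex are not given in the sources used here, and the series text calls the 4 rats of a group biological replicates. The groups compared differ by both agents, and a group with CYM-5478 as the sole agent is not part of the design, so what CYM-5478 does by itself and what it does to the response to cisplatin cannot be told apart.

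Dorsal root ganglia hold the cell bodies of the sensory neurons for pain, itch, temperature, touch and limb position, each wrapped by satellite glia, together with myelinated axons, Schwann cells, fibroblasts, vessels and resident macrophages. They lie outside the blood-nerve barrier, platinum accumulates in them, and the DNA crosslinks it forms are linked to the sensory neuropathy that limits cisplatin treatment. CYM-5478 is an agonist of S1P2, a G-protein-coupled receptor for the lipid sphingosine 1-phosphate encoded by S1pr2. The question addressed is how far ganglia exposed to both drugs differed in their RNA from ganglia that had seen neither.

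Expression was given as FPKM, a fragment count corrected for transcript length and for library size, added up here over all transcripts that belong to a gene. The sum of FPKM per library, in units of 1000, was 606 ± 14.0 with cisplatin and CYM-5478 and 602 ± 7.06 with vehicle (SD, n = 4 each, two-sided exact permutation p = 0.8, with 0.0286 the lowest p this design allows). The 10 genes of highest mean held 13.3 ± 0.743% of that sum with cisplatin and CYM-5478 and 13.8 ± 1.10% with vehicle (SD, n = 4 each, two-sided exact permutation p = 0.543). With cisplatin alone the sum was 657 ± 14.8, in units of 1000, and the share 16.4 ± 0.627% (SD, n = 4). Those 4 libraries had sums of 641 to 676, above the 593 to 626 of the libraries with CYM-5478 or vehicle. Without read counts the absolute depth is unknown. Judged by the spacing of low values and relative to vehicle replicate 1, the depth of CYM-5478 replicate 2 was 1.54 and that of the other libraries with CYM-5478 or vehicle 0.946 to 1.17. Spearman correlations over the tested genes were 0.976 to 0.986 within groups and 0.975 to 0.986 between groups. All 20 pan-neuronal genes were detected, and their FPKM summed to 6087 to 7676 per library with cisplatin and CYM-5478 and 5915 to 8587 with vehicle. A pan-neuronal list as a whole shows neuronal RNA and does not single out dorsal root ganglia, so the tissue label was not tested by it. These are bulk samples, so fewer cells of a type and less RNA per cell cannot be told apart in any value that follows.

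No gene passed the test between cisplatin with CYM-5478 and vehicle. Of 16753 genes tested, 0 (0%) had an adjusted p under 0.05 in limma, and the smallest adjusted p was 0.631. Limma is a linear model that draws each gene's own spread part of the way towards that of genes of similar level. At an unadjusted p under 0.05 there were 970 genes (5.79%), 512 higher (3.06%) and 458 lower (2.73%) with cisplatin and CYM-5478. The 4 libraries of one group lay apart from the 4 of the other for 578 genes (3.45%), 283 higher (1.69%) and 295 lower (1.76%). The median absolute log2 change over all tested genes was 0.076, where log2 changes are taken on log2(FPKM + 0.5) and shrink towards 0 for genes of low level. A p above the threshold does not show that 2 groups were alike, so many of the changes below are given with a 95% interval. The whole interval lay between -1 and 1 for 15870 genes (94.7%) and between -0.5 and 0.5 for 12789 genes (76.3%). A change of 1 on this scale in either direction was thus outside the interval of most single genes, while the intervals reached a median of 0.23 to either side of the estimate.

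The same fit gave far more calls when cisplatin alone was one side of the contrast. Cisplatin alone against vehicle had 1794 genes past the threshold (10.7%), 457 higher (2.73%) and 1337 lower (7.98%), and cisplatin with CYM-5478 against cisplatin alone had 941 (5.62%), 759 higher (4.53%) and 182 lower (1.09%). The 3 comparisons share libraries in pairs, so their values are placed side by side and no agreement between them is counted. The 941 calls rested on most libraries being present: 0 were left without CYM-5478 replicate 2, 3 or 4, without cisplatin replicate 1 or 4, or without vehicle replicate 1, and 391 without vehicle replicate 3. Against vehicle, cisplatin alone gave 0 calls once cisplatin replicate 4 was left out and 3 once vehicle replicate 2 was, with 643 to 1847 in the other 10 fits of this kind. No call named below for either of these contrasts held in every one of the 12 fits that leave out 1 library. Rescaled to an equal sum of FPKM (TPM), cisplatin with CYM-5478 against cisplatin alone had 2577 calls, 2528 higher and 49 lower, and cisplatin alone against vehicle had 3293, 117 higher and 3176 lower. The sum of FPKM was highest with cisplatin alone, so this rescaling lowers its values relative to the other groups. Cisplatin with CYM-5478 against cisplatin alone had 2 calls with no filter on low values and 452 with libraries weighted by their quality. With the numbers of the sample titles as a block, both of these contrasts had 0 calls. The groups share those numbers only in part, and vehicle replicate 2 has a title number of its own. Such a block leaves fewer degrees of freedom to estimate the spread, so its loss of calls cannot show a pairing of the rats.

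**Figure D1:**
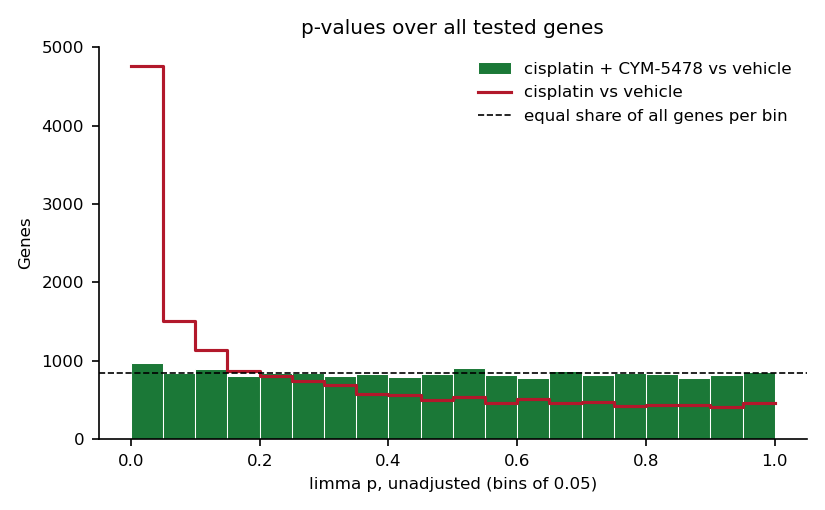
Histogram of unadjusted limma p-values over 16753 genes (x axis, p-value; y axis, number of genes) for cisplatin with CYM-5478 against vehicle and for cisplatin alone against vehicle, with a line at an equal share of genes per bin. The bins of the first comparison stay near the line, where 970 genes lie under 0.05, whereas the second comparison piles up at low p.

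No pan-neuronal gene differed from vehicle beyond the threshold. Uchl1, an abundant ubiquitin hydrolase of neurons, was at 959, 1041, 1206 and 999.9 FPKM in the 4 libraries of cisplatin with CYM-5478, against 1073, 1340.3, 1137 and 1033 FPKM in the 4 vehicle libraries. The ranges overlapped (log2 change -0.12, SE 0.13, interval -0.41 to 0.16, limma adjusted p = 0.980). In the 4 cisplatin libraries Uchl1 was at 572, 829, 819.5 and 682 FPKM, and cisplatin with CYM-5478 was higher than cisplatin alone (log2 change 0.55, limma adjusted p = 0.0406). Tubb3, the neuronal beta-tubulin, was at 732, 797, 912 and 753 FPKM with cisplatin and CYM-5478, against 766, 1036, 841 and 709 FPKM with vehicle. Here too the groups overlapped (log2 change -0.060, SE 0.15, interval -0.40 to 0.28, limma adjusted p = 0.993), and the level was above that of cisplatin alone (log2 change 0.68, limma adjusted p = 0.0395). Pou4f1, the transcription factor that defines sensory neurons, averaged 20.7 ± 2.50 FPKM with cisplatin and CYM-5478, 13.1 ± 2.18 FPKM with cisplatin alone and 22.9 ± 3.18 FPKM with vehicle (SD, n = 4 each). Its interval against vehicle was -0.43 to 0.15, and its difference from cisplatin alone passed (log2 change 0.65, limma adjusted p = 0.0395). Gap43, a growth cone protein, had the largest change of the pan-neuronal genes at 0.28 (interval -0.12 to 0.67). Of the 20 pan-neuronal genes, 0 passed in either direction against vehicle, 5 had a log2 change above 0 and 15 below, with a median of -0.041 (range -0.16 to 0.28). That median was -0.13 without CYM-5478 replicate 3 and 0.041 without vehicle replicate 2. For cisplatin alone against vehicle the median of the same genes was -0.63, with 16 of 20 lower (7.98% of all tested genes), and for cisplatin with CYM-5478 against cisplatin alone it was 0.60, with 9 of 20 higher (4.53% of all tested genes).

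Pain-sensing neurons carry peptides and heat- or irritant-gated channels. Calca, which encodes the pain peptide CGRP, was at 355, 323, 479 and 463 FPKM with cisplatin and CYM-5478, against 379, 346, 306 and 335 FPKM with vehicle. CYM-5478 replicate 3 was the highest of the 8 libraries and the groups overlapped (log2 change 0.23, SE 0.14, interval -0.068 to 0.52, limma adjusted p = 0.921). Against cisplatin alone, where the mean was 229.6 ± 31.3 FPKM (SD, n = 4), Calca was higher (log2 change 0.81, limma adjusted p = 0.0395). Trpv1, the capsaicin and heat channel, averaged 26.5 ± 4.48 FPKM with cisplatin and CYM-5478, 17.7 ± 2.21 FPKM with cisplatin alone and 23.7 ± 3.31 FPKM with vehicle (SD, n = 4 each), with an interval against vehicle of -0.14 to 0.44. Its difference from cisplatin alone passed (log2 change 0.56, limma adjusted p = 0.0406). Sst, which encodes somatostatin and marks itch neurons in mice, had a log2 change of 0.25 against vehicle (interval -0.14 to 0.64). Among 20 tested nociceptor markers 0 passed, 16 lay above 0 and 4 below, and the median was 0.064, or -0.079 without CYM-5478 replicate 3. Pvalb, the calcium-binding protein of limb-position neurons, averaged 31.7 ± 2.00 FPKM with cisplatin and CYM-5478 and 34.5 ± 8.64 FPKM with vehicle (SD, n = 4 each, interval -0.66 to 0.48). Maf, a transcription factor of touch neurons, averaged 56.0 ± 2.15 FPKM with cisplatin and CYM-5478 and 67.5 ± 1.82 FPKM with vehicle (SD, n = 4 each), and its libraries did not overlap (log2 change -0.27, SE 0.087, interval -0.46 to -0.077, limma adjusted p = 0.818). The 19 touch and proprioceptive markers had a median of -0.088, 15 of them below 0 and 0 past the threshold.

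Channels, synapses and axonal transport gave the same count of 0 genes past the threshold. Syn2, a synapsin of synaptic vesicles, averaged 37.1 ± 4.58 FPKM with cisplatin and CYM-5478, 24.4 ± 3.87 FPKM with cisplatin alone and 41.9 ± 4.30 FPKM with vehicle (SD, n = 4 each), with log2 changes of -0.18 against vehicle (interval -0.44 to 0.089) and 0.60 against cisplatin alone (limma adjusted p = 0.0395). Kcnq3, a subunit of the M-current channel that dampens firing, had the lowest log2 change of the potassium channels at -0.32 (interval -0.74 to 0.11). Kif1a, a kinesin that carries vesicles along axons, had an interval of -0.23 to 0.066. Kif5b, a kinesin made in most cells, averaged 215 ± 4.69 FPKM with cisplatin and CYM-5478 and 193 ± 4.06 FPKM with vehicle (SD, n = 4 each), and its libraries did not overlap (log2 change 0.15, SE 0.051, interval 0.040 to 0.27, limma adjusted p = 0.823). The median log2 change was -0.035 over 25 sodium and calcium channel genes, -0.051 over 24 potassium channel genes, -0.053 over 25 genes of synaptic vesicles and -0.012 over 21 genes of kinesins and axonal transport. For cisplatin alone against vehicle the medians of these 4 lists were -0.45, -0.65, -0.58 and -0.28 in the same order.

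Genes that damaged sensory neurons switch on gave no call. Atf3, the transcription factor most used as a marker of axon injury, was at 10.1, 6.90, 8.31 and 9.91 FPKM with cisplatin and CYM-5478, against 10.3, 8.51, 9.49 and 10.6 FPKM with vehicle. The groups overlapped (log2 change -0.14, SE 0.16, interval -0.49 to 0.20). Sox11, a regulator of axon regrowth, and Tnfrsf12a, a cytokine receptor induced by injury, had intervals of -0.10 to 0.38 and -0.49 to 0.020. Over 16 tested injury genes the median was 0.021 and over 17 genes of axon survival and degeneration it was 0.014. In the axon survival list Cast, the calpain inhibitor calpastatin, had libraries above those of vehicle and an interval of -0.0069 to 0.20, and Nmrk1, a kinase that makes the NAD precursor NMN, had an interval of -0.45 to 0.0073.

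**Figure D2:**
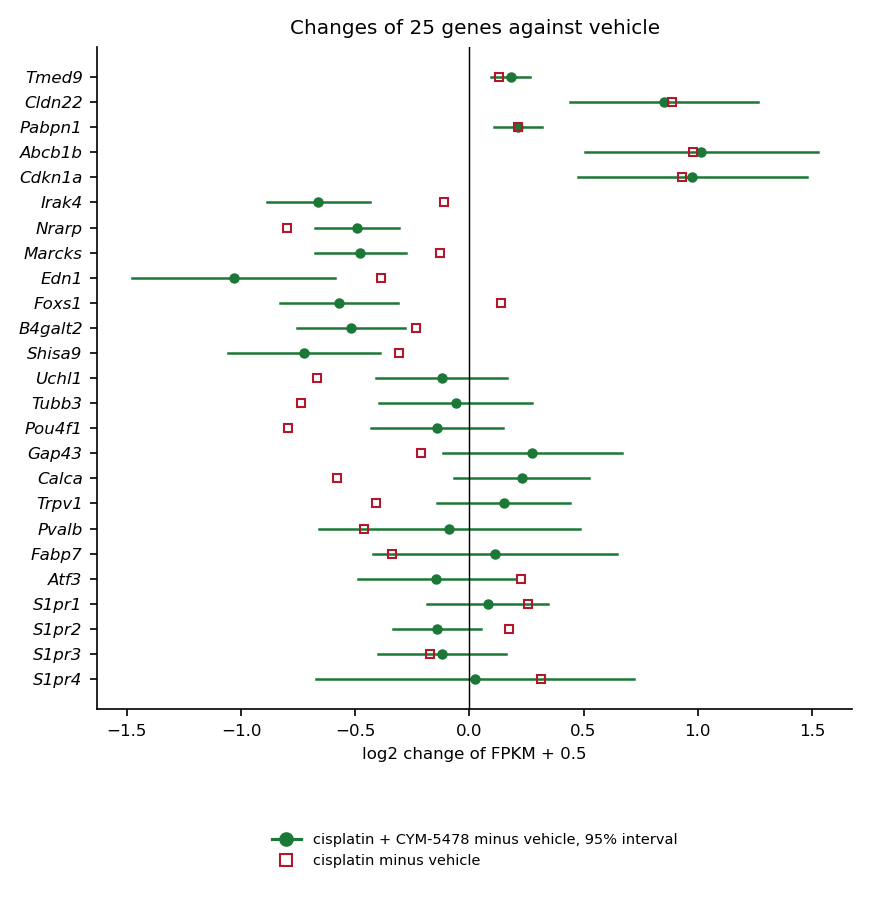
Log2 change of 25 named genes for cisplatin with CYM-5478 against vehicle (x axis, difference on log2(FPKM + 0.5); point, estimate; bar, 95% interval), with open squares for cisplatin alone against vehicle. The neuronal genes Uchl1, Tubb3 and Pou4f1 have intervals that include 0, whereas the intervals of Irak4, Nrarp, Edn1, Cdkn1a and Abcb1b do not, with adjusted p of 0.631 to 0.697.

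The receptor that CYM-5478 targets was detected in every library. S1pr2 was at 13.5, 11.2, 12.8 and 12.3 FPKM with cisplatin and CYM-5478, against 13.8, 12.5, 13.6 and 15.1 FPKM with vehicle. The ranges overlapped (log2 change -0.14, SE 0.089, interval -0.34 to 0.053, limma adjusted p = 0.923), and with cisplatin alone it was at 17.2, 13.5, 14.6 and 17.0 FPKM. By mean FPKM, a scale set per length, S1pr3 was the most abundant of the family, then S1pr2, S1pr1 and S1pr4. S1pr3 averaged 28.8 ± 3.23 FPKM with cisplatin and CYM-5478 and 31.5 ± 5.57 FPKM with vehicle (SD, n = 4 each, interval -0.40 to 0.16), and S1pr1 8.27 ± 0.879 FPKM with cisplatin and CYM-5478 and 7.87 ± 1.50 FPKM with vehicle (SD, n = 4 each, interval -0.19 to 0.35). S1pr4, a receptor of blood-derived cells, averaged 1.86 ± 0.898 FPKM with cisplatin and CYM-5478 and 1.74 ± 0.633 FPKM with vehicle (SD, n = 4 each, interval -0.67 to 0.72), and S1pr5, known in oligodendrocytes and natural killer cells, was below the level needed for a test at 0.594, 0.507, 0.0800 and 0.225 FPKM with cisplatin and CYM-5478, against 0.342, 0.373, 0.497 and 0.321 FPKM with vehicle. Spns2, the exporter of sphingosine 1-phosphate, averaged 7.65 ± 0.146 FPKM with cisplatin and CYM-5478 and 8.64 ± 0.628 FPKM with vehicle (SD, n = 4 each) without overlap between libraries (log2 change -0.16, SE 0.069, interval -0.31 to -0.014, limma adjusted p = 0.840). Acer2, a ceramidase that yields sphingosine and is a p53 target, averaged 4.52 ± 0.715 FPKM with cisplatin and CYM-5478 and 3.69 ± 0.373 FPKM with vehicle (SD, n = 4 each, log2 change 0.25, SE 0.10, interval 0.029 to 0.48, limma adjusted p = 0.840). Of 31 tested genes of sphingosine 1-phosphate metabolism and signalling 0 passed, and the median was 0.0051.

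The 8 genes of smallest p in each direction, an order fixed by p in this same contrast, are described without further weight on their rank. All 16 had libraries that did not overlap and an adjusted p of 0.631 to 0.697. Of these 16, 2 have no symbol and 2 have provisional LOC names, and those 4 are not described. Among those described on the higher side was Cdkn1a, which encodes p21, the cell-cycle inhibitor that p53 switches on after DNA damage. Its level was 11.7, 13.9, 7.65 and 6.81 FPKM with cisplatin and CYM-5478, against 5.08, 4.36, 3.49 and 5.96 FPKM with vehicle. The lowest library with CYM-5478 was above the highest vehicle library (log2 change 0.98, SE 0.23, interval 0.47 to 1.48, limma adjusted p = 0.697). With cisplatin alone Cdkn1a was at 10.9, 7.49, 11.6 and 7.82 FPKM, which was higher than vehicle (log2 change 0.93, limma adjusted p = 0.0293), and the change of cisplatin with CYM-5478 against cisplatin alone was 0.047 (adjusted p = 0.924). Abcb1b, a rodent P-glycoprotein that pumps drugs out of cells, was at 1.78, 1.77, 0.669 and 1.05 FPKM with cisplatin and CYM-5478, against 0.413, 0.350, 0.143 and 0.628 FPKM with vehicle. The gap between the groups was narrow at 0.669 against 0.628 FPKM (log2 change 1.02, SE 0.23, interval 0.51 to 1.53), the level is low, and reads may be shared with the close paralog Abcb1a. Abcb1b averaged 1.22 ± 0.232 FPKM (SD, n = 4) with cisplatin alone, higher than vehicle (log2 change 0.98, limma adjusted p = 0.0256). Between the cisplatin groups its change was 0.036 (limma adjusted p = 0.945).

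Cldn22, of the claudin family of tight junction proteins, was at 3.95, 5.75, 4.12 and 2.99 FPKM with cisplatin and CYM-5478, against 2.51, 2.10, 1.56 and 2.12 FPKM with vehicle (log2 change 0.85, SE 0.19, interval 0.44 to 1.26). Its level with cisplatin alone was 4.61, 4.09, 5.27 and 3.17 FPKM, higher than vehicle (log2 change 0.89, limma adjusted p = 0.0208). The change of cisplatin with CYM-5478 against cisplatin alone was -0.037 (limma adjusted p = 0.929). Pabpn1, the nuclear poly(A)-binding protein, averaged 75.6 ± 2.19 FPKM with cisplatin and CYM-5478, 75.5 ± 3.48 FPKM with cisplatin alone and 65.1 ± 2.92 FPKM with vehicle (SD, n = 4 each). It was above vehicle in both cisplatin groups, by 0.21 with CYM-5478 (SE 0.048, limma adjusted p = 0.697) and by 0.21 without (SE 0.048, limma adjusted p = 0.0228). The cisplatin groups differed from each other by 0.0025 (limma adjusted p = 0.981). The adjustment is made within each contrast, so equal changes can have unlike adjusted p. Tmed9, a cargo receptor between the endoplasmic reticulum and the Golgi, averaged 66.1 ± 2.63 FPKM with cisplatin and CYM-5478 and 58.3 ± 0.865 FPKM with vehicle (SD, n = 4 each), a small change with a narrow interval (log2 change 0.18, SE 0.039, interval 0.095 to 0.26). Among 31 tested p53 targets and DNA damage genes, 20 had a change above 0 and the median was 0.047. Cdkn1a apart, Gadd45b, a stress-induced gene of DNA repair and growth arrest, averaged 12.8 ± 1.49 FPKM with cisplatin and CYM-5478, 14.1 ± 0.870 FPKM with cisplatin alone and 10.0 ± 1.64 FPKM with vehicle (SD, n = 4 each), with an interval against vehicle of 0.098 to 0.60. In that list 4 genes had higher libraries that did not overlap, against 1.69% of all genes, and 0 had lower ones. Of 18 tested genes of platinum and drug transport, 13 lay above 0, with a median of 0.094. Besides Abcb1b, Gstp1, which conjugates drugs to glutathione, averaged 159 ± 10.2 FPKM with cisplatin and CYM-5478 and 142 ± 0.633 FPKM with vehicle (SD, n = 4 each), with libraries apart (log2 change 0.16, SE 0.069, interval 0.0072 to 0.31, limma adjusted p = 0.840).

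The lower side began with Irak4, the kinase that relays Toll-like and interleukin-1 receptor signals. It was at 2.68, 2.91, 3.04 and 2.58 FPKM with cisplatin and CYM-5478, against 4.90, 4.80, 4.36 and 4.80 FPKM with vehicle. All 4 libraries with both drugs were below the 4 vehicle libraries (log2 change -0.66, SE 0.10, interval -0.89 to -0.44, limma adjusted p = 0.631). With cisplatin alone it was at 5.05, 3.43, 4.54 and 4.44 FPKM, and Irak4 was lower with cisplatin and CYM-5478 than with cisplatin alone (log2 change -0.55, limma adjusted p = 0.0395). Marcks, a membrane-bound protein kinase C substrate that binds actin, was at 106, 93.3, 107 and 103 FPKM with cisplatin and CYM-5478, against 148, 125, 148 and 151 FPKM with vehicle. Vehicle replicate 2 stood below the other 3 vehicle libraries but above every library with CYM-5478 (log2 change -0.48, SE 0.091, interval -0.68 to -0.28), and the difference from cisplatin alone passed (log2 change -0.35, limma adjusted p = 0.0471). Edn1, the precursor of the vasoconstrictor peptide endothelin-1, was at 0.988, 1.22, 1.55 and 1.11 FPKM with cisplatin and CYM-5478, against 3.19, 3.54, 2.53 and 2.78 FPKM with vehicle. Its interval of -1.48 to -0.59 was centred on -1.03 (limma adjusted p = 0.697), and cisplatin alone spanned 1.41 to 3.02 FPKM, across both. B4galt2, a galactosyltransferase of the Golgi, averaged 5.51 ± 0.677 FPKM with cisplatin and CYM-5478 and 8.10 ± 0.886 FPKM with vehicle (SD, n = 4 each, log2 change -0.52, SE 0.11, interval -0.76 to -0.28), and Shisa9, an auxiliary protein of AMPA receptors, 2.46 ± 0.364 FPKM with cisplatin and CYM-5478 and 4.44 ± 0.981 FPKM with vehicle (SD, n = 4 each, log2 change -0.72, SE 0.15, interval -1.06 to -0.39).

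**Figure D3:**
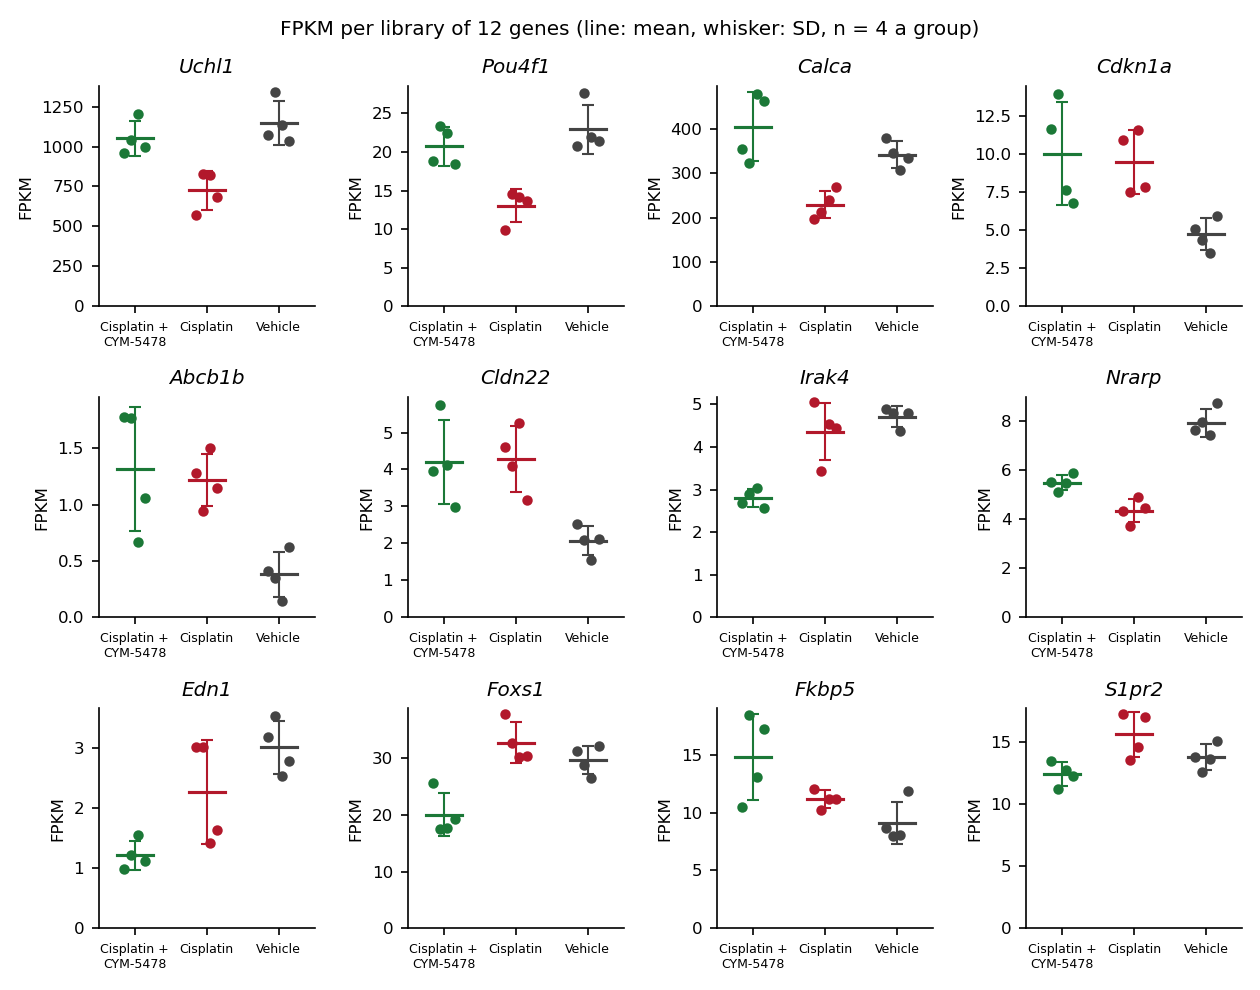
FPKM per library (y axis, linear from 0) of 12 genes with cisplatin and CYM-5478, cisplatin alone and vehicle, where each point is 1 rat, the line the group mean and the whisker the SD (n = 4). Cdkn1a and Abcb1b sit above vehicle in both cisplatin groups, Irak4 and Foxs1 are below both other groups with CYM-5478, and Uchl1, Pou4f1 and Calca overlap vehicle.

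Nrarp, a Notch target that feeds back on the pathway, was below vehicle in both cisplatin groups. It was at 5.52, 5.10, 5.46 and 5.88 FPKM with cisplatin and CYM-5478, 4.32, 3.74, 4.89 and 4.46 FPKM with cisplatin alone and 7.63, 7.95, 7.42 and 8.73 FPKM with vehicle. The 3 groups did not overlap, and against vehicle the change was -0.49 with CYM-5478 (SE 0.085, limma adjusted p = 0.697) and -0.80 without (limma adjusted p = 0.0124). The difference between the cisplatin groups was 0.31 (limma adjusted p = 0.0555). Hey1, another Notch target, averaged 9.04 ± 0.573 FPKM with cisplatin and CYM-5478 and 11.5 ± 1.68 FPKM with vehicle (SD, n = 4 each), and 1 or more libraries overlapped (interval -0.54 to -0.12). Of 19 Notch genes 16 lay below 0, with a median of -0.11 and 0 past the threshold, and the median ran between -0.17 and -0.071 when single libraries were left out.

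Mural cells, the pericytes and smooth muscle cells around vessels, gave 0 genes past the threshold. Of 13 tested mural genes 2 had libraries below those of vehicle without overlap, against 1.76% of all genes. Foxs1, a forkhead factor of pericytes that is also known in embryonic sensory neurons of mice, was at 25.6, 17.5, 17.6 and 19.2 FPKM with cisplatin and CYM-5478, against 31.2, 28.8, 26.5 and 32.1 FPKM with vehicle. It lay below vehicle (log2 change -0.57, SE 0.12, interval -0.83 to -0.31, limma adjusted p = 0.697) and was lower than with cisplatin alone, where it was at 37.8, 32.7, 30.2 and 30.3 FPKM (log2 change -0.71, limma adjusted p = 0.0395). Tbx18, a T-box factor of pericytes, averaged 6.47 ± 0.465 FPKM with cisplatin and CYM-5478, 10.4 ± 1.53 FPKM with cisplatin alone and 8.86 ± 1.18 FPKM with vehicle (SD, n = 4 each), with changes of -0.42 against vehicle (interval -0.67 to -0.17) and -0.63 against cisplatin alone (limma adjusted p = 0.0395). Against vehicle 10 of the mural genes lay below 0, with a median of -0.15 that was -0.26 without vehicle replicate 3 and -0.055 without CYM-5478 replicate 3. Against cisplatin alone 4 of these genes were lower, against 1.09% of all genes, and 1 was higher, against 4.53%, and these calls too were lost in the fits that gave 0 calls for that contrast. Endothelial genes had a median of -0.050 over 15 genes. Egfl7 and Esam, which encode a secreted vessel factor and a junction protein, had intervals of -0.64 to 0.085 and -0.47 to 0.062, and Pecam1, which encodes the endothelial junction protein CD31, averaged 15.2 ± 2.95 FPKM with cisplatin and CYM-5478 and 15.5 ± 2.67 FPKM with vehicle (SD, n = 4 each).

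Glial genes gave 0 calls against vehicle. Fabp7, a fatty acid binding protein of satellite glia, averaged 31.2 ± 8.16 FPKM with cisplatin and CYM-5478 and 28.6 ± 6.40 FPKM with vehicle (SD, n = 4 each, interval -0.42 to 0.64), and Kcnj10, their potassium channel Kir4.1, 14.7 ± 1.39 FPKM with cisplatin and CYM-5478, 11.8 ± 1.14 FPKM with cisplatin alone and 16.8 ± 1.08 FPKM with vehicle (SD, n = 4 each). Kcnj10 was lower with cisplatin alone than with vehicle (log2 change -0.50, limma adjusted p = 0.0170), and its interval for cisplatin with CYM-5478 against vehicle was -0.38 to -0.013. Cisplatin with CYM-5478 against cisplatin alone gave 0.30 for Kcnj10 (limma adjusted p = 0.0558). Egr2, a master regulator of Schwann cell myelination, was at 35.6, 35.5, 38.8 and 54.7 FPKM with cisplatin and CYM-5478, against 33.2, 29.5, 33.8 and 20.1 FPKM with vehicle. Its libraries did not overlap (log2 change 0.49, SE 0.19, interval 0.076 to 0.91, limma adjusted p = 0.840). Gjc3, a connexin of myelinating glia, had a change of -0.32 and an interval of -0.65 to 0.016. Of 21 myelin genes 17 lay below 0, with changes of -0.54 to 0.49 and a median of -0.036, which ran between -0.14 without CYM-5478 replicate 1 and 0.047 without vehicle replicate 3. The median was 0.015 over 13 satellite glia genes.

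Lss, which makes lanosterol on the way to cholesterol, was listed at an extreme level. It was at 2934, 3137, 1543 and 1972 FPKM with cisplatin and CYM-5478, against 5501, 4331, 3483 and 3812 FPKM with vehicle, and the libraries did not overlap (log2 change -0.87, SE 0.27, interval -1.47 to -0.28, limma adjusted p = 0.803). Nearly all of that value came from 1 of its 4 listed transcripts, and the other 3 summed to 56.2 ± 6.58 FPKM with cisplatin and CYM-5478 and 76.0 ± 19.7 FPKM with vehicle (SD, n = 4 each, deposited values). Whether the reads of the abundant transcript come from Lss was not tested. Of 20 cholesterol synthesis genes 17 lay below 0, with a median of -0.041, and next after Lss by p was Idi1, an isomerase of the pathway, with an interval of -0.43 to 0.040.

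Mean levels of a pair of collagen genes with cisplatin and CYM-5478 lay between those of the other groups. Col6a1, a chain of the collagen VI around Schwann cells and fibroblasts, averaged 115 ± 0.192 FPKM with cisplatin and CYM-5478, 137 ± 11.4 FPKM with cisplatin alone and 99.1 ± 13.0 FPKM with vehicle (SD, n = 4 each). Its libraries lay above vehicle (log2 change 0.23, SE 0.087, interval 0.036 to 0.41, limma adjusted p = 0.840), and cisplatin alone was higher than vehicle (log2 change 0.47, limma adjusted p = 0.0189). The change of Col6a1 for cisplatin with CYM-5478 against cisplatin alone was -0.25 (limma adjusted p = 0.109). Col5a2, a fibrillar collagen, averaged 80.4 ± 1.81 FPKM with cisplatin and CYM-5478, 97.0 ± 7.28 FPKM with cisplatin alone and 72.3 ± 4.62 FPKM with vehicle (SD, n = 4 each), with a change of 0.15 against vehicle (interval 0.021 to 0.28). Col5a2 was lower with cisplatin and CYM-5478 than with cisplatin alone (log2 change -0.27, limma adjusted p = 0.0395). Over 20 fibroblast and matrix genes the median was 0.045 against vehicle, and it was 0.29 for cisplatin alone against vehicle, where 6 passed as higher, against 2.73% of all genes.

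Genes that glucocorticoids induce had the highest median of the 39 lists. Of 20 tested genes, 0 passed the adjusted threshold, 6 reached an unadjusted p under 0.05, all higher (3.06% of all tested genes did so), and 17 lay above 0, with a median of 0.31 that ran between 0.28 and 0.41 as single libraries were left out. The median over all tested genes was -0.00079. Cdkn1a, described above with the p53 targets, is also in this list and is among those 6 genes. Whether its change goes with either list was not tested. Fkbp5, a co-chaperone of the glucocorticoid receptor and one of its classic targets, was at 10.5, 18.4, 13.1 and 17.2 FPKM with cisplatin and CYM-5478, against 8.66, 7.98, 8.02 and 11.8 FPKM with vehicle. CYM-5478 replicate 1 was within the vehicle range and the other 3 lay above it (log2 change 0.65, SE 0.17, interval 0.29 to 1.02, limma adjusted p = 0.697). Per1, a clock gene that glucocorticoids also induce, was at 15.7, 32.0, 29.5 and 44.6 FPKM with cisplatin and CYM-5478, against 16.5, 16.4, 11.7 and 14.0 FPKM with vehicle, again with replicate 1 inside the vehicle range (log2 change 0.95, SE 0.24, interval 0.42 to 1.48, limma adjusted p = 0.697). The list score, which averages the genes of a list after subtracting each gene's vehicle mean on the log2 scale, was 0.071, 0.55, 0.26 and 0.46 with cisplatin and CYM-5478, 0.35, 0.42, 0.27 and 0.49 with cisplatin alone and 0.13, 0.080, -0.17 and -0.047 with vehicle. Replicate 1 with CYM-5478 thus scored among the vehicle libraries, and all 4 libraries of cisplatin alone scored above all 4 of vehicle. For cisplatin alone against vehicle the median of these genes was 0.37, with 2 past the threshold, both higher (2.73% of all tested genes). The time of day at which tissue was taken is not given in the sources used here. Bhlhe40, a clock repressor, had a wide interval of -0.055 to 1.17, and 17 clock genes had a median of 0.097, between -0.038 without CYM-5478 replicate 4 and 0.30 without vehicle replicate 4.

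Immediate early genes, which neuronal activity and handling switch on within minutes, had changes of both signs. Arc, which encodes a synaptic activity protein, was at 1.26, 1.25, 1.47 and 1.16 FPKM with cisplatin and CYM-5478, against 1.58, 2.46, 1.64 and 2.47 FPKM with vehicle (log2 change -0.49, SE 0.13, interval -0.78 to -0.20, limma adjusted p = 0.735). Egr3, an activity-induced zinc finger factor, was at 2.26, 2.33, 2.28 and 1.40 FPKM with cisplatin and CYM-5478, against 3.87, 3.10, 3.00 and 3.19 FPKM with vehicle (log2 change -0.58, SE 0.16, interval -0.92 to -0.23). Neither overlapped between the groups, and replicate 4 with CYM-5478 was well below the other 3 for Egr3. Egr2, given above with the Schwann cell genes, is also in this list and had its highest log2 change, 0.49. Of the 22 genes, 2 had higher libraries that did not overlap (1.69% of all tested genes) and 2 had lower ones (1.76%). Over 22 genes 10 lay above 0 and 12 below, with a median of -0.012.

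Interferon-stimulated genes were above 0 in 25 of 26 cases with 0 past the threshold, and 1 library weighed heavily on them. Their median was 0.27, and it was 0.079 without CYM-5478 replicate 3 and 0.41 without CYM-5478 replicate 2. The list score was 0.11, -0.11, 0.90 and 0.28 with cisplatin and CYM-5478, against 0.12, -0.015, -0.094 and -0.015 with vehicle, so replicate 3 was far above the rest and replicate 2 below every vehicle library. Ddx58, which encodes the RNA sensor RIG-I, was at 6.70, 5.54, 10.7 and 7.20 FPKM with cisplatin and CYM-5478, against 5.09, 4.95, 4.04 and 5.26 FPKM with vehicle (log2 change 0.56, SE 0.19, interval 0.15 to 0.97, limma adjusted p = 0.823). Ifit2, an antiviral effector, averaged 11.8 ± 4.04 FPKM with cisplatin and CYM-5478 and 8.07 ± 1.19 FPKM with vehicle (SD, n = 4 each, interval 0.017 to 0.92). Antigen presentation genes had a median of 0.21 over 14 genes, or 0.12 without CYM-5478 replicate 3, and their members B2m and Tap1, the light chain of class I molecules and a peptide transporter, had intervals of -0.039 to 0.40 and -0.059 to 0.53.

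Blood and bone-marrow cell genes differed more between rats of a group than between groups. The neutrophil and granulocyte precursor score was 0.95, 1.76, -1.40 and -0.18 with cisplatin and CYM-5478, against -0.26, 0.034, 0.82 and -0.59 with vehicle. The red blood cell score was 0.75, 1.24, -1.22 and 0.16 with cisplatin and CYM-5478, against -0.25, -0.18, 0.74 and -0.30 with vehicle, and the cell cycle score 0.36, 0.93, -0.52 and -0.052 with cisplatin and CYM-5478, against -0.13, -0.15, 0.46 and -0.18 with vehicle. On all 3 scores CYM-5478 replicate 2 was the highest and replicate 3 the lowest of the 8 libraries. The 18 neutrophil genes summed to 252 to 2824 FPKM with cisplatin and CYM-5478 and 502 to 1372 FPKM with vehicle, with none at 0 in every library. Their median was 0.29, -0.19 without CYM-5478 replicate 2 and 0.91 without CYM-5478 replicate 3. All 13 red blood cell genes lay above 0 with a median of 0.22, which was -0.14 without CYM-5478 replicate 2. Likewise 22 of 24 cell cycle genes lay above 0 with a median of 0.17, which was -0.074 without that library. Counts of genes above 0 in such lists move with single rats, and none of their genes passed the threshold. Intervals were accordingly wide, -0.64 to 1.95 for Prtn3, a protease of granulocyte precursors, -0.88 to 1.98 for Retnlg, a neutrophil resistin, and -1.05 to 2.04 for Ca1, a carbonic anhydrase of red cells. Bpgm, an enzyme of red cells, had an interval of -0.12 to 0.54. Pcna and Kif20a, a replication clamp and a mitotic kinesin, had intervals of 0.0076 to 0.36 and -0.12 to 0.75.

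**Figure D4:**
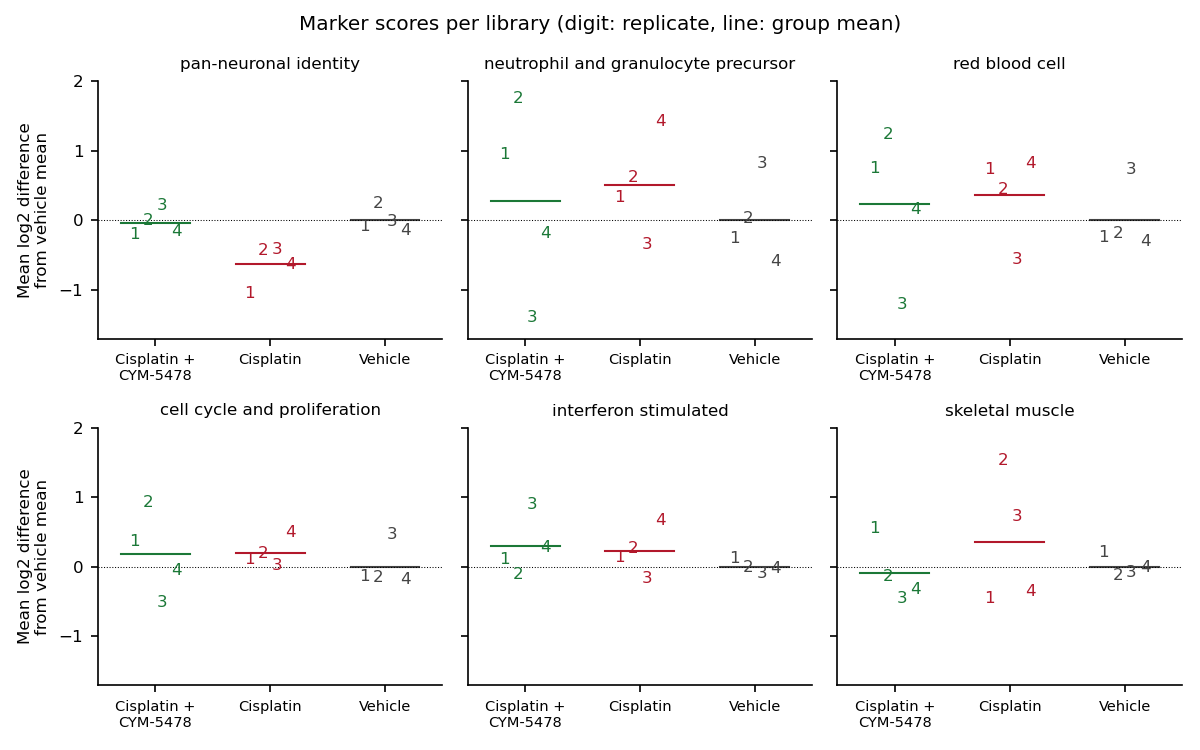
Score of marker lists per library (y axis, mean over the genes of a list of log2(FPKM + 0.5) minus the vehicle mean; each digit 1 rat by its replicate number, line the group mean) with cisplatin and CYM-5478, cisplatin alone and vehicle. Replicates 2 and 3 with CYM-5478 lie at opposite ends of the neutrophil, red blood cell and cell cycle scores, while the pan-neuronal score stays between -0.20 and 0.21 in the CYM-5478 group.

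Resident and infiltrating immune cells gave 0 genes past the threshold. Cd163, the scavenger receptor of tissue macrophages for haemoglobin, was at 10.8, 12.9, 8.94 and 11.1 FPKM with cisplatin and CYM-5478, against 10.1, 7.68, 5.72 and 6.54 FPKM with vehicle (log2 change 0.53, SE 0.19, interval 0.11 to 0.95, limma adjusted p = 0.837). Mrc1, the mannose receptor of the same cells, had an interval of -0.065 to 0.53, and 14 of 17 macrophage genes lay above 0 with a median of 0.12, which was 0.053 without vehicle replicate 2. Among lymphocyte genes, Cd8a, a co-receptor of cytotoxic T cells, averaged 1.31 ± 0.502 FPKM with cisplatin and CYM-5478 and 0.842 ± 0.224 FPKM with vehicle (SD, n = 4 each), and Cd3g, a chain of the T cell receptor complex, had an interval of -0.48 to 0.87. The median was 0.062 over 11 tested lymphocyte genes, and -0.017 without CYM-5478 replicate 4. Cytokine and acute inflammation genes had a median of 0.099 over 19 genes, which was 0.0016 without vehicle replicate 3. Its extremes by p were Ccl19, a chemokine for lymphocytes, with an interval of -0.078 to 1.35, and Selp, the endothelial adhesion molecule P-selectin, with -0.95 to 0.019. Muscle and fat, which can adhere to dissected ganglia, varied likewise. The 16 muscle genes had a median of -0.092 with intervals of -0.30 to 0.89 for Tnnt3, a troponin, and -1.06 to 0.39 for Mb, myoglobin. The 11 adipocyte genes had a median of 0.077, 0.27 without CYM-5478 replicate 4, with Pparg, the fat cell regulator, at 2.27 ± 0.263 FPKM with cisplatin and CYM-5478 and 1.50 ± 0.478 FPKM with vehicle (SD, n = 4 each), and Pck1, a gluconeogenic enzyme, at an interval of -0.078 to 1.05.

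Cellular stress and metabolism complete the lists, each with 0 genes past the threshold. Gclc, the rate-limiting enzyme of glutathione synthesis, was at 17.1, 19.1, 16.9 and 17.3 FPKM with cisplatin and CYM-5478, against 13.6, 14.7, 15.4 and 15.7 FPKM with vehicle. The libraries with CYM-5478 were all above the vehicle libraries (log2 change 0.24, SE 0.059, interval 0.11 to 0.36, limma adjusted p = 0.697). Gsta4, a glutathione transferase for lipid peroxidation products, averaged 32.4 ± 3.79 FPKM with cisplatin and CYM-5478, 49.2 ± 5.74 FPKM with cisplatin alone and 39.1 ± 3.39 FPKM with vehicle (SD, n = 4 each), and it was lower than with cisplatin alone (log2 change -0.59, limma adjusted p = 0.0395), with an interval against vehicle of -0.49 to -0.051. Over 22 antioxidant genes the median was 0.067. Ddit3, the stress factor CHOP, averaged 24.8 ± 2.78 FPKM with cisplatin and CYM-5478 and 20.8 ± 1.55 FPKM with vehicle (SD, n = 4 each, log2 change 0.25, SE 0.094, interval 0.040 to 0.45), and Manf, a protein secreted under endoplasmic reticulum stress, 59.8 ± 5.99 FPKM with cisplatin and CYM-5478 and 51.1 ± 5.36 FPKM with vehicle (SD, n = 4 each, log2 change 0.23, SE 0.083, interval 0.044 to 0.41). The median was 0.077 over 21 genes of the unfolded protein and integrated stress responses and 0.043 over 11 heat shock genes, where Hsp90ab1 and Hspe1, a cytosolic and a mitochondrial chaperone, had intervals of -0.0059 to 0.26 and -0.040 to 0.23.

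Bcl2 and Bcl2l1, which hold back cell death, averaged 14.9 ± 0.727 and 51.8 ± 4.80 FPKM with cisplatin and CYM-5478, against 13.3 ± 0.812 and 44.8 ± 3.52 FPKM with vehicle (SD, n = 4 each). Both groups overlapped for each gene, with intervals of 0.028 to 0.28 for Bcl2 and 0.035 to 0.38 for Bcl2l1, and 20 apoptosis genes had a median of 0.039. Rpl23, a protein of the large ribosomal subunit, had an interval of 0.022 to 0.66, and 20 of 25 cytosolic ribosomal protein genes lay above 0 with a median of 0.064, or 0.023 without CYM-5478 replicate 2. Ribosomal protein genes have many processed pseudogenes that can share reads with them. Nuclear genes of oxidative phosphorylation had a median of -0.00088 over 28 genes, and Ndufb8 of complex I and Cox4i1 of complex IV had intervals of 0.021 to 0.45 and -0.033 to 0.38. Transcripts of the mitochondrial genome had a median of 0.019 over 11 genes, with intervals of -0.11 to 0.33 for Mt-nd6 and -0.76 to 0.35 for Mt-atp8. The medians of the 39 lists ran between -0.15, for mural cells, and 0.31, for glucocorticoid-responsive genes.

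**Figure D5:**
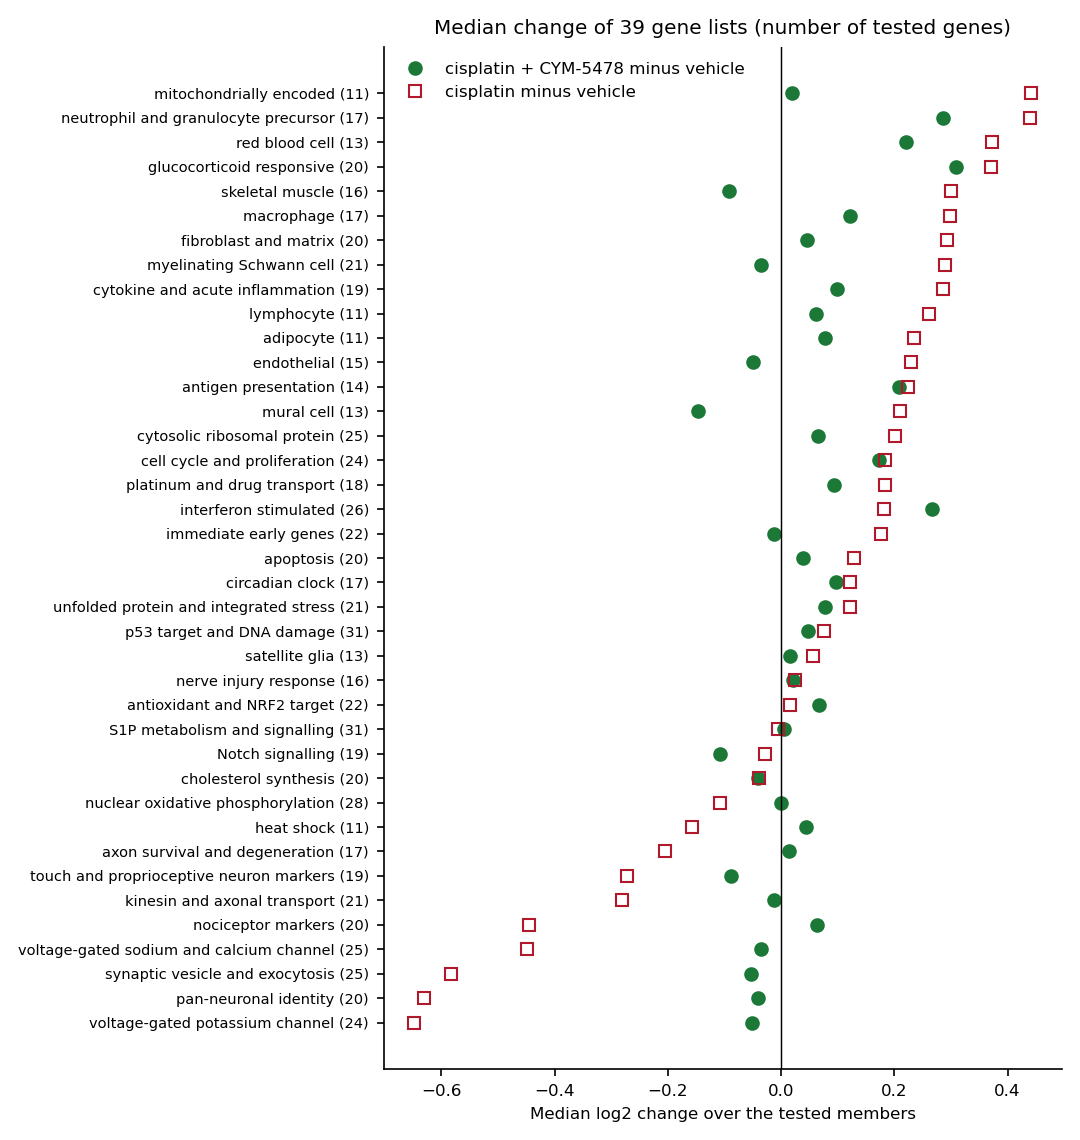
Median log2 change of 39 gene lists (x axis, median over the tested genes of a list; y axis, lists) for cisplatin with CYM-5478 against vehicle and for cisplatin alone against vehicle. The medians of the first comparison lie between -0.15 and 0.31, and the neuronal lists, near 0 there, lie between -0.65 and -0.27 for cisplatin alone apart from the injury and axon survival lists.

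A few single genes turned on which libraries were included. Cebpb, an inflammation-linked transcription factor named here after its values were seen, was at 6.80, 7.27, 7.06 and 7.89 FPKM with cisplatin and CYM-5478, 18.4, 4.97, 4.31 and 13.5 FPKM with cisplatin alone and 16.2, 15.5, 13.9 and 13.3 FPKM with vehicle. The libraries with CYM-5478 clustered below those of vehicle, while cisplatin alone spread across both. With the cisplatin libraries in the estimate of the spread the change was -0.97 (SE 0.36, limma adjusted p = 0.840), and with the 8 libraries of the comparison alone the same change passed the threshold (limma adjusted p = 0.0162, between 0.0162 and 1 over the alternatives). A protein-coding gene with only a clone-based name was listed at 18.7, 0, 18.5 and 21.3 FPKM with cisplatin and CYM-5478, 13.3, 13.8, 20.0 and 18.3 FPKM with cisplatin alone and 0 in all 4 vehicle libraries. Replicate 2 with CYM-5478 shared the 0 of the vehicle libraries, and without it the gene passed the threshold (limma adjusted p = 1.05e-08). What this entry, AABR06078903.1, encodes is not described here, and a listed 0 can be a failed estimate.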

How the data were processed

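Ribosomal RNA was removed from the total RNA of the ganglia before strand-specific libraries were made, per the labels' protocols. The authors' deposited values are FPKM for 30275 transcripts of 25252 genes as used here, and some transcripts may be missing. The submitters' processing notes list STAR 2.7.8a, Bowtie2 2.0.6, bcl2fastq 2.20, FastQC, DESeq2 and the build Rnor_6.0, without saying what each did. What produced the FPKM is not given in the sources used here. Gene sums were scaled per library (factors 0.998 to 1.01, median ratios over genes of 1 FPKM or more). Limma 3.58.1 in R 4.3.3 was run on log2(FPKM + 0.5) for genes averaging at least 0.5 FPKM, with 3 group means, 12 libraries, 9 residual degrees of freedom, a variance trend and Benjamini-Hochberg adjustment. Intervals are 95% and unadjusted. The workflow was tested on simulated data with independent noise per gene. Those data hold no differences between libraries that many genes share, so the test cannot show how the workflow handles them.

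The comparison and the 39 gene lists (778 symbols, 749 matched by symbol, 6 by synonym, 23 unmatched) were chosen with earlier results of these data known. As under 10 genes passed, named genes are the 8 smallest p per direction, the 2 smallest p per list, and S1pr1 to S1pr5, Atf3, Cdkn1a, Uchl1, Tubb3, Calca, Trpv1, Pvalb and Fabp7, except provisional names. Cebpb, Pecam1, AABR06078903.1 and Rn50_1_1362.2 were added after their values were seen. Replicate numbers are those of the sample descriptions, which differ from those of the titles. Alternatives were pseudocounts of 0.1 and 1, a filter at 2 FPKM or none, TPM, quantile or no scaling, the 8 libraries alone, replicate numbers as a block, array weights, robust variances, 50 in place of 10 abundant genes, and each library left out. Leaving out CYM-5478 replicates 2 and 3 together, which have extreme neutrophil scores, was chosen after seeing the data. Some genes that the rule picks are not reported here.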

Additional observations from a re-analysis of the deposited data

Results flagged for a closer look

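In 12 of 274 groups of 4 libraries, 1 library stood far from the other 3, with a gap to its nearest neighbour, as a share of the range of the group, above the 95% critical value of Dixon's test. Chance alone would mark about 1 in 20 such groups. With cisplatin and CYM-5478, replicate 2 was at 0 FPKM for AABR06078903.1 (gap 0.964 of the range). It was the only library of its group above 0 for the lincRNA Rn50_1_1362.2 (gap 1). For this lincRNA the 4 vehicle libraries were at 1.10, 2.26, 0.935 and 1.94 FPKM. All 4 libraries of cisplatin alone were at 0 for it (log2 change against vehicle -1.99, limma adjusted p = 0.0189). For both entries CYM-5478 replicate 2 was on the side of the vehicle libraries. Within its group CYM-5478 replicate 2 also had the highest sum of FPKM (gap 0.856) and the highest Gclc (gap 0.832). Egr3 was lowest in replicate 4 with cisplatin and CYM-5478 (gap 0.931), and Glul, glutamine synthetase of satellite glia, was lowest in replicate 1 (gap 0.874). Among vehicle libraries, replicate 2 was lowest for Marcks (gap 0.887) and for Mt-atp8 (gap 0.899). Vehicle replicate 4 was lowest for Gadd45b (gap 0.841) and highest for the antigen presentation score (gap 0.931). Vehicle replicate 3 was highest for the red blood cell score (gap 0.887) and the cell cycle score (gap 0.928). What sets these libraries apart was not tested.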

How the results depend on the processing

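The count of 0 genes past the threshold held in 22 of 25 alternatives and was 1 (Cebpb, lower) with the 8 libraries alone and 1 (AABR06078903.1, higher, limma adjusted p = 4.70e-07) without CYM-5478 replicates 2 and 3. It ran from 0 to 2 when single libraries were left out, the 2 without CYM-5478 replicate 2 being AABR06078903.1 (log2 change 5.32) and Rn50_1_1362.2 (-1.99, limma adjusted p = 0.0176). Genes at an unadjusted p under 0.05 numbered between 755 and 1197. The description numbers as a replicate block gave 0 genes past the threshold (smallest adjusted p 0.185, 957 unadjusted), and the title numbers as a block gave 0 (smallest 0.538, 755 unadjusted). Correlations of same-numbered deviations were -0.108, 0.0443, -0.244 and 0.0543 for description numbers 1 to 4, and -0.108 and 0.142 for title numbers 1 and 5, so neither numbering was taken to pair the rats. The title block, whose numbers the groups share only in part, gave 0 calls in both contrasts with cisplatin alone. The description block gave 1304 for cisplatin with CYM-5478 against cisplatin alone and 1881 for cisplatin alone against vehicle.

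Of 97 named genes, 86 kept their sign in every alternative. The medians of 33 of 39 lists moved by less than 1 SD of the list score between libraries within a group. That is a loose bound for lists whose score varies widely between rats, such as the neutrophil genes. Only 15 of the 39 medians kept their sign in every fit without 1 library. With the title block the median was -0.048 for macrophage genes and -0.077 for cytokine genes. Ca1 (0.50) and Mb (-0.34) were the genes furthest from 0 whose sign turned. With the title numbers as a block the log2 change was 0.027 for Kif1a, 0.079 for Tubb3, 0.11 for Pvalb and -0.077 for S1pr4, which was -0.0010 after quantile normalization. Without CYM-5478 replicates 2 and 3 it was -0.0060 for Trpv1, 0.20 for Mb, 0.0077 for S1pr3, 0.046 for Atf3 and -0.20 for Fabp7. With single libraries left out it ran from -0.19 to 0.29 for S1pr4, -0.028 to 1.20 for Ca1, -0.027 to 0.25 for Fabp7, -0.13 to 0.047 for Tubb3, -0.20 to 0.027 for Pvalb and -0.013 to 0.18 for S1pr1. The group difference ran from -3.41 to 6.78 (units of 1000 FPKM) for the sum of FPKM and from -0.815 to 0.0275 percentage points for the share of the 10 most abundant genes. The cause was not tested. With 4 rats a group and no read counts, small changes may have been missed. The same fit did call a change of 0.21, that of Pabpn1, in cisplatin alone against vehicle (limma adjusted p = 0.0228). Changes whose unadjusted interval excluded 0 also went uncalled, since the threshold applies to p adjusted over all 16753 p-values of this contrast. Edn1, for example, had a log2 change of -1.03 with an interval of -1.48 to -0.59 and a limma adjusted p of 0.697.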
